A study of Mus musculus with 64 samples.

Results

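The step examined here is the passage of the mouse (Mus musculus) preimplantation embryo into the 4-cell stage. It was measured on 8 of the 64 arrays of the study, 4 of 4-cell embryos set against 4 of 2-cell embryos, chosen by the stage named in the sample titles. Each array carried total RNA of a group of embryos in one channel and a common RNA named Universal Control in the other, which all groups share. The 8 arrays belong to a stage set of 28 arrays in 7 groups running from the unfertilized egg to the blastocyst, 4 arrays each. A treatment set holds the remaining 36 arrays, 3 a group, of eggs and embryos up to the late 2-cell stage, measured against a common RNA named Universal Reference. Of these, the report uses AM-treated embryos at 54 h and at 43 h, each set against control embryos of the same hour, and control embryos at 54 h, 43 h and 32 h. The labels give no strain, age, sex or number of embryos per array. They also do not say whether arrays of one stage came from separate collections. The p-values below therefore measure a spread between arrays that may be technical. That spread is pooled over all groups of a set, so it is not that of the compared groups alone.

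The mouse egg stops transcribing as it matures, and the first division runs on stored maternal RNA. In the 2-cell embryo the embryonic genome is switched on in a major wave and most maternal RNAs are degraded, while a class of transcripts made briefly at that stage is silenced again before or during the next division. Genes for heat shock proteins, ribosome assembly, RNA processing and protein synthesis are known to be prominent among those that the embryo transcribes as it leaves the 2-cell stage.

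Values are log2 ratios of embryo to common RNA, so a value of 0 means equal signal in both channels, and the deposited ratios stop at a 100-fold difference, 6.64 on this scale. The direction of the ratio is likely but not settled, since no label names the dyes, and the scale, the centring and the normalization within arrays are not stated either. It rests on stored oocyte RNAs such as those of the zona pellucida, for which 16 of 20 probes of 14 genes lay above the common RNA in unfertilized eggs and 17 of 20 were higher in eggs than in blastocysts. With the sign turned, every rise below would be a fall. A level measures RNA relative to the common RNA after the authors' scaling, so a change in one transcript cannot be told apart from an opposite change in the total RNA of the embryo, nor a change in cell number from one in RNA per cell.

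More probes passed as higher than as lower at this step. Of 22575 probes tested, 3075 (13.6%) differed between 4-cell and 2-cell embryos at an adjusted p under 0.05 (limma, Benjamini-Hochberg over all probes), with 2162 (9.58%) higher and 913 (4.04%) lower in 4-cell embryos. At least 2-fold differences were reached by 1712 (7.58%) of the probes that rose and 387 (1.71%) of those that fell. All 4-cell arrays lay above all 2-cell arrays for 2421 probes (10.7%) and below them for 1212 (5.37%), whether or not they passed the test. Probes that name a single gene cover 3089 genes, of which 507 (16.4%) rose, 168 (5.44%) fell, and 9 (0.291%) had probes that passed in both directions. A gene counts here as risen if any of its probes passed higher and none passed lower, and as fallen by the mirror of that rule. Genes with several probes thus had more chances to be counted. The median difference over all probes was -0.10, and 1494 of the 3089 genes had a mean difference above 0. The excess of rises is thus one of calls, and not of all transcripts.

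The probes that rose had a median ratio of 0.34 in 4-cell embryos and -0.998 in 2-cell embryos, close to the common RNA after the step and well under it before. Those that fell had a median of 0.73 in 4-cell embryos and 1.66 in 2-cell embryos, so most of them were still above the common RNA. The ratios were also more tightly packed in 4-cell embryos, with interquartile ranges of 1.22, 1.53, 1.57 and 1.47 on the 4 arrays, against 2.26, 2.15, 1.75 and 1.38 on the 2-cell arrays. The mean correlation of an array with the others of its stage was 0.918 to 0.933 in 4-cell embryos and 0.821 to 0.883 in 2-cell embryos. The part of this narrower spread in the calls was not tested. With every array centred and scaled to the same interquartile range, 2817 probes passed, 1794 higher and 1023 lower, and 1959 of the 3075 calls were kept.

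**Figure D1:**
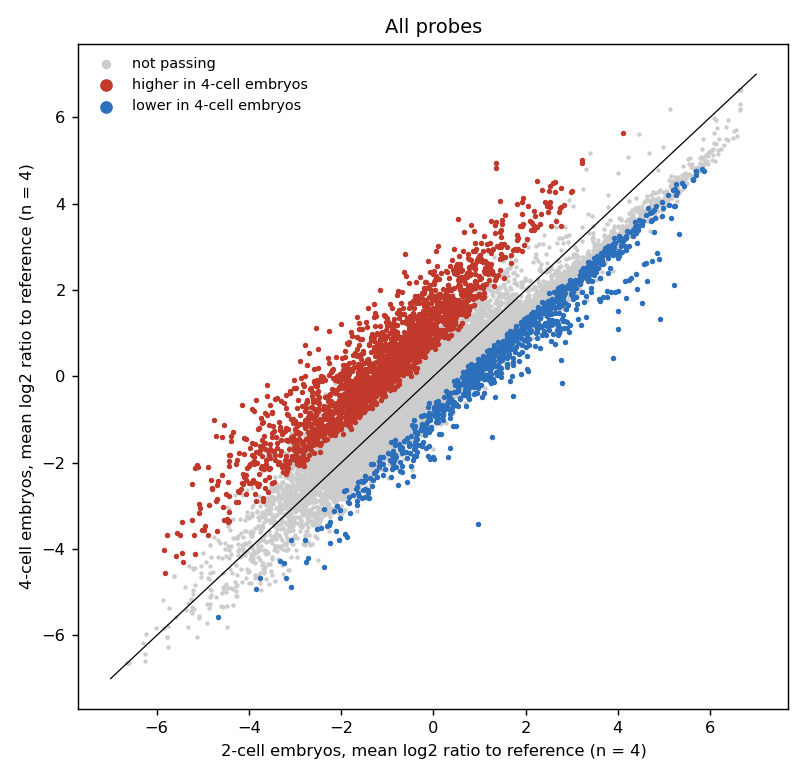
Mean log2 ratio to the common RNA of every probe in 4-cell embryos (vertical axis) against 2-cell embryos (horizontal axis), 4 arrays each; the line marks equal ratios. Red points are the 2162 probes higher and blue points the 913 probes lower in 4-cell embryos, and the cloud lies flatter than the line, as the wider interquartile ranges of 3 of the 2-cell arrays imply.

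The largest named rise was that of Rab1a, the small GTPase that drives transport from the endoplasmic reticulum to the Golgi. Its ratio was -0.41, -1.05, -0.50 and -0.70 on the 4-cell arrays, against -4.19, -5.65, -3.55 and -3.19 on the 2-cell arrays. No 4-cell array came near a 2-cell array, and the difference was 3.48 ± 0.40 (SE), 11.2-fold, with an adjusted p of 3.61e-06. The second Rab1a probe rose by 2.67 ± 0.34. Mllt6, a chromatin protein gene known from leukaemia fusions, stood at -0.91, -1.35, -1.31 and -0.93 in 4-cell embryos, against -6.64, -4.36, -4.66 and -2.47 in 2-cell embryos, a difference of 3.41 in which 1 of the 2-cell arrays was held at the lower limit. Among the 20 largest rises, 2-cell array 2 was the lowest of its group for 16 genes and 2-cell array 1 for the other 4, while 2-cell array 4 was the highest for 14. The size of each rise therefore varies with the 2-cell arrays much more than with the 4-cell arrays.

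**Figure D2:**
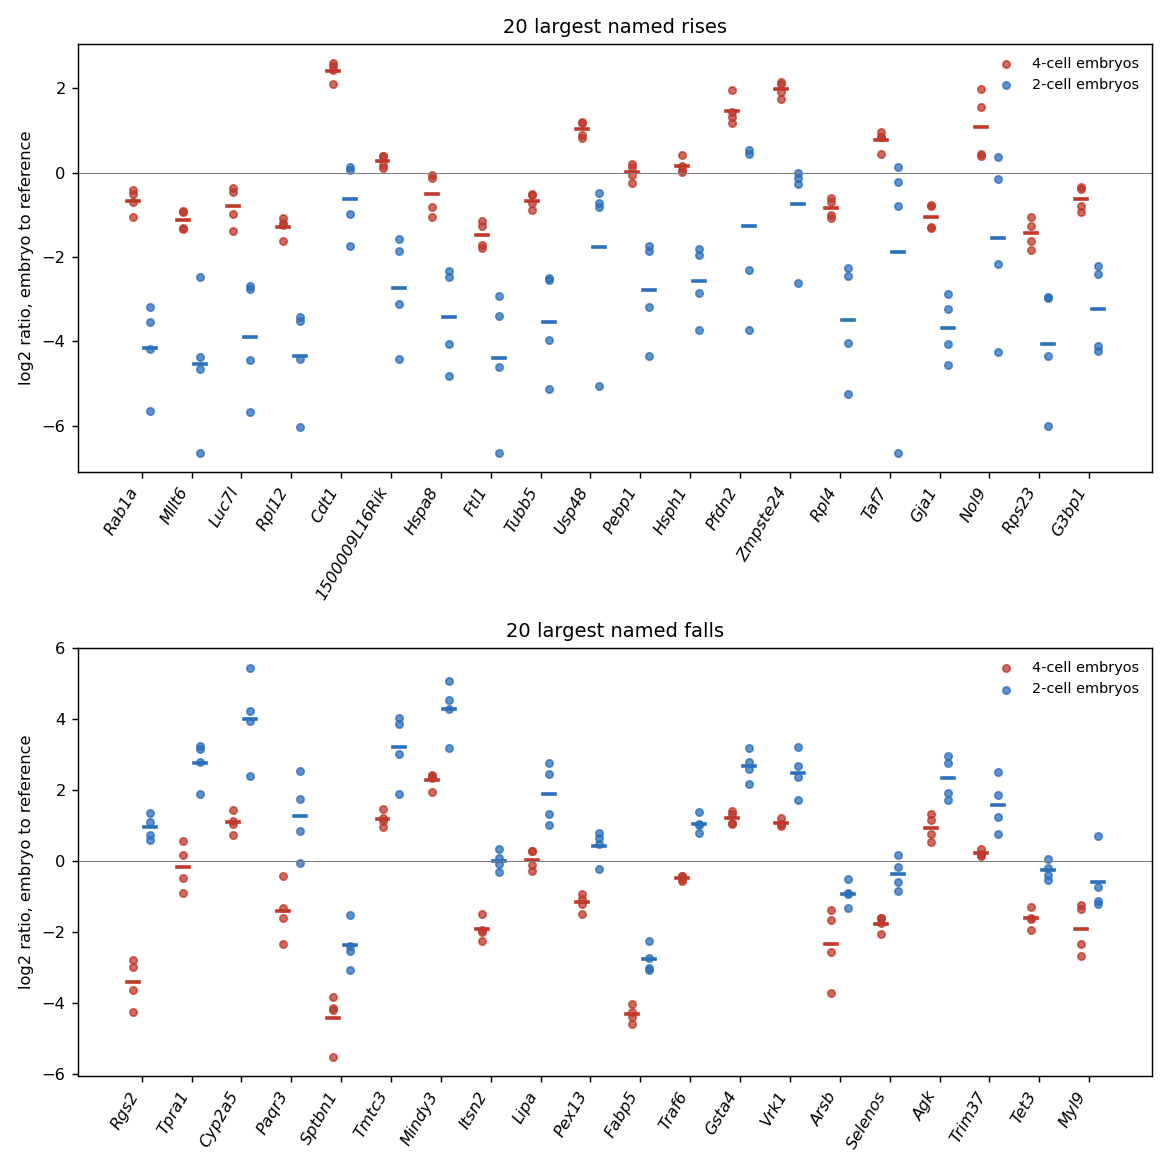
Log2 ratio to the common RNA on each of the 4 arrays of 4-cell embryos (red, left of each pair) and 2-cell embryos (blue, right) for the 20 named genes with the largest rises (top) and falls (bottom); short lines are group means. No pair overlaps, which was required for being shown, and the 2-cell arrays spread far more than the 4-cell arrays among the rises, as for Rab1a (SD 0.29 in 4-cell and 1.08 in 2-cell embryos).

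Chaperones, the proteins that fold newly made chains and protect cells from heat, were among the most frequent rises. Of 28 measured members of the list, 11 rose and none fell, against 16.4% risen among all named genes, and the median difference of the list was 0.66, against -0.02 over all named genes. Hspa8, the constitutive Hsp70 chaperone long known to be made by the early embryo, stood at -0.14, -0.82, -1.05 and -0.06 in 4-cell embryos, against -4.06, -4.83, -2.35 and -2.48 in 2-cell embryos. It rose 7.53-fold (2.91 ± 0.52 on the log2 scale, adjusted p = 0.000401). Hsph1, an Hsp110 nucleotide exchange factor for Hsp70, had ratios of 0.06, 0.02, 0.16 and 0.42 in 4-cell embryos, against -2.86, -3.72, -1.95 and -1.80 in 2-cell embryos, crossing the level of the common RNA on every array. Hspa5, the Hsp70 of the endoplasmic reticulum, rose with each of its 3 probes, by 2.29, 2.20 and 2.18. Hsp90aa1, the inducible Hsp90, rose by 1.78 ± 0.44, and Pfdn2, a prefoldin subunit that hands tubulin and actin to the chaperonin, by 2.74 ± 0.63 with one probe while its other probe gave 0.50. The Hsp40 genes Dnajb11, Dnaja1, Dnajb6 and Dnaja2 rose by means over their probes of 1.39, 1.29, 1.07 and 0.77, as did the chaperonin subunit Cct2 (0.89) and the mitochondrial Hsp90 Trap1 (0.97). For Dnaja1, Dnajb6, Dnaja2 and Cct2 only 1 of 2 probes passed. Under equal interquartile ranges 10 of the 28 rose and 2 fell.

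Promoters of 3 of these genes are shown because heat shock factor and the endoplasmic reticulum stress response act on chaperone promoters through known short motifs, GAANNTTC or TTCNNGAA for heat shock elements and CCAAT for the box bound by NF-Y. Each runs from 250 bases before to 50 bases after the gene start in RefSeq on GRCm38.p6, 5′ to 3′ on the gene's strand. Capitals mark matches on either strand, to the heat shock motifs in Hsph1 and Dnaja1 and to CCAAT in Hspa5. The Hsph1 promoter also holds CCAAT, which is left unmarked. Hsph1 lies on chr5:149636287-149636586 (minus strand) with 3 heat shock matches, Dnaja1 on chr4:40722218-40722517 (plus strand) with 1 heat shock match, and Hspa5 on chr2:34771840-34772139 (plus strand) with 4 CCAAT matches.
Hsph1: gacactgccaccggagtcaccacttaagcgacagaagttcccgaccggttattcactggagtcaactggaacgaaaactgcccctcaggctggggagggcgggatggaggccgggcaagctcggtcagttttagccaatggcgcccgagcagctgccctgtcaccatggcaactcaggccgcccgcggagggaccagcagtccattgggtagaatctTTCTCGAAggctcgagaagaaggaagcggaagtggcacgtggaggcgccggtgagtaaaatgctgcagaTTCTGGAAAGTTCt
Dnaja1: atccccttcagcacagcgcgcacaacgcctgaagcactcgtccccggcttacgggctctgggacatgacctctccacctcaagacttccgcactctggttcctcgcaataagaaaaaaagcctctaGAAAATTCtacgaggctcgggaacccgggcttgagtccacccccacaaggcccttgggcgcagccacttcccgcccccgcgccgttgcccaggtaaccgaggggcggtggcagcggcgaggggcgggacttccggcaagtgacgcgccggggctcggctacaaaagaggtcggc
Hspa5: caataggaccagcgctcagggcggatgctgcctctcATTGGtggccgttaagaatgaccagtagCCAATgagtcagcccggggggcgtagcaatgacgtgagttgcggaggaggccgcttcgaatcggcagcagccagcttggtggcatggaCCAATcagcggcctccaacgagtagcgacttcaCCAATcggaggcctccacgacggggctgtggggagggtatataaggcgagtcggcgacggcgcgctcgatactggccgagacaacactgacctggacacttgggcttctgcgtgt
Of the 11 chaperone genes that rose, 9 had a promoter in the table, and 3 of these (33.3%) held GAANNTTC and 2 (22.2%) TTCNNGAA, against 5.97% and 6.53% of the 2497 named genes with a promoter. Chaperones that did not rise were not counted, so these shares cannot tell a trait of chaperones from one of the rise. The promoters shown were picked by hand. CCAAT was held by 3 of the 9 (33.3%), against 38.0% of the 2497, so it was not more frequent among them. Over all genes that rose, 422 of 507 had a promoter, and the shares were 6.87% for GAANNTTC, 7.82% for TTCNNGAA, 40.0% for CCAAT (38.0% of all), 12.1% for the E-box CACGTG (10.6%), 68.0% for the GC box GGGCGG (65.8%), 7.82% for TATAAA (7.65%) and 1.90% for the cAMP response element TGACGTCA (3.20%). These shares were close to those of all named genes. A match is a description of letters and not a site in use. For the genes that fell the comparison is void, since 79.2% of them had a promoter in the table, under the minimum of 80% required here.

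Of 25 measured nucleolar ribosome assembly genes, 11 rose (44%, against 16.4% of all named genes), none fell and 14 did not pass, with a median difference of 0.86. Ncl, which encodes nucleolin, had ratios of 1.32, 1.34, 0.72 and 1.57 in 4-cell embryos, against -1.07, -0.56, -0.18 and -0.22 in 2-cell embryos. All 4-cell arrays lay above the common RNA and all 2-cell arrays below it, a difference of 1.74 ± 0.34, and its second probe rose by 1.33. Nop58, a core protein of box C/D small nucleolar ribonucleoproteins, rose by 1.81 ± 0.27 and its partner Nop56 by 1.13. Nolc1, Polr1a (the largest subunit of RNA polymerase I), Rrp15, Gnl3 (nucleostemin) and Nop2 rose by 1.39, 1.22, 1.53, 1.35 and 1.21 as means over their probes. Of Nolc1 and of Polr1a 2 of 3 probes passed. The count was 7 without 2-cell array 2 and lay between 7 and 15 risen and 0 fallen under all alternatives other than the replicate block, which called no probe.

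Cytosolic ribosomal proteins themselves were split. Of 23 measured, 7 (30.4%, against 16.4% of all named genes) rose and 1 (Rpl27a, with 1 of 2 probes) fell. The median of the list was 0.05, so the typical member did not follow the largest ones. Rps23 was counted as risen with 1 of 3 probes and Rplp0 with 1 of 2. Rpl12 stood at -1.24, -1.63, -1.08 and -1.20 in 4-cell embryos, against -4.43, -6.03, -3.42 and -3.52 in 2-cell embryos, 8.36-fold higher. Rps21, Rps26 and Rps28 rose by 2.42, 1.96 and 2.02. Of the 5 probes of Rpl4, 3 rose (2.65, 2.42 and 1.92) and the other 2 gave 0.25 and 0.32. Ribosomal protein genes, Gapdh, Ftl1 and Tubb5 have near-identical copies or pseudogenes, and the files do not show which copy a probe reads. Among 19 translation factors and tRNA synthetases 8 (42.1%, against 16.4% of all named genes) rose and none fell (5.44% of all). Of the 8, Eef2, Eif4e2, Eif4g3 and Eif2s2 passed with 1 of 2 probes. Eif4e, the cap-binding initiation factor, was at 1.83, 2.08, 1.94 and 2.27 in 4-cell embryos, against -0.18, 0.32, 0.89 and 0.26 in 2-cell embryos, and both of its probes passed (1.71 and 1.67). Eif3a (1.41), Eif5 (1.42 and 1.36) and the threonyl-tRNA synthetase Tars (1.31) also rose. Without 2-cell array 2 the count was 4 of the 19, and without array 2 of either stage 3.

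Of 47 splicing factors, 18 rose (38.3%, against 16.4% of all named genes), 1 (Sf3b1, with 1 of 4 probes and a mean of 0.04 over them) fell, and Luc7l2 and Rbm25 had probes in both directions, while 26 did not pass. The list median was 0.48. Among the 18, Srsf6, Srsf1, Srsf11 and Txnl4a passed with 1 of 2 probes, and Hnrnpab and Luc7l3 with 1 of 3. Srsf3, an SR protein that guides splice site choice, was at -0.94, -1.48, -1.29 and -0.91 in 4-cell embryos, against -4.64, -3.54, -3.54 and -2.20 in 2-cell embryos. The helicase Ddx5 rose by 2.04 ± 0.37, and Prpf31, a U4/U6 particle protein, rose with both probes (1.70 and 1.60). The SF3 complex subunits Sf3a3, Sf3b2, Sf3b3 and Sf3a2 rose by 1.37, 1.26, 1.04 (a mean of 2 probes, 1 of which passed) and 0.87. Luc7l, a U1 particle protein, rose by 3.10 with one probe and gave 0.20 with the other. Without array 2 of either stage 10 of the 47 rose. Of 15 RNA polymerase and general transcription factor genes, 4 rose (26.7%) and 1 fell, but the 4 rises became 0 without 4-cell array 2, without 4-cell array 4 or in the fit of the 8 arrays alone, 1 without 4-cell array 1 or 2-cell array 1, and 2 without 2-cell array 2. The largest, Taf7 of TFIID, had ratios of 0.85, 0.84, 0.43 and 0.95 in 4-cell embryos, against -6.64, -0.78, 0.13 and -0.22 in 2-cell embryos, so its difference of 2.65 rests on 1 array held at the lower limit. Supt4a, an elongation factor subunit, fell by 1.23 with one probe.

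DNA replication genes gave 7 rises (33.3%, against 16.4% of all named genes) and no fall among 21. Of the 7, Top2a passed with 1 of 5 probes and Rrm2 with 1 of 2. Cdt1, which loads the replicative helicase onto origins, had ratios of 2.52, 2.10, 2.44 and 2.59 in 4-cell embryos, against -0.99, -1.74, 0.06 and 0.13 in 2-cell embryos. It was 8.26-fold higher (3.05 ± 0.33, adjusted p = 2e-06), although its other probe gave 0.48. Tk1, thymidine kinase, rose by 2.11 ± 0.32, Topbp1, a replication checkpoint adaptor, by 1.50 ± 0.23, and the flap endonuclease Fen1 by 1.27 ± 0.42. Without 2-cell array 2 the count was 4 of the 21, and under equal interquartile ranges it was 3. Of 20 cyclins and cell cycle kinases, 4 rose and 2 fell, and the 20% that rose is near the 16.4% of all named genes. Cdc20, the activator of the anaphase-promoting complex, rose by 1.41 ± 0.33 and Cdk2 by 1.29 ± 0.33. Ccne1, the cyclin E gene whose product pairs with Cdk2, had ratios of 2.92, 2.67, 2.65 and 2.80 in 4-cell embryos, against 1.56, 0.72, 1.81 and 2.09 in 2-cell embryos. The falls were the spindle checkpoint gene Mad2l1 (1 of 2 probes) and the D-type cyclin kinase Cdk6, of whose 4 probes 1 passed and whose mean was -1.07. Fitting the 8 arrays alone left 0 of the 20 risen, and leaving out 2-cell array 1 left 2.

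Of 36 endoplasmic reticulum and Golgi traffic genes, 10 rose (27.8%, against 16.4% of all named genes) and 4 fell (11.1%, against 5.44%). Of the 10, Tmed10 and Sec62 passed with 1 of 2 probes, with means over their probes of -0.01 and 0.32. The falls were 1 without 4-cell array 2, 3 or 4 and in the fit of the 8 arrays alone, and 2 without 4-cell array 1, 2-cell array 1 or 2-cell array 4. Next to Rab1a, the translocon genes Ssr2 (2.31 ± 0.42) and Sec61a1 (2.18 ± 0.27) and the cargo receptor Tmed2 (1.67) rose, while the SNAREs Gosr1 and Stx5a, the coat protein gene Copa and Rab14 fell by 1.73, 0.80, 0.75 and 0.93. Among 36 ubiquitin system genes 9 (25%) rose, 2 fell and Ubr4 had probes in both directions. Of the 9, Ube2k and Ube2g1 passed with 1 of 3 probes. Usp10, a deubiquitinase, was at 2.74, 3.01, 2.93 and 2.93 in 4-cell embryos, against 0.61, 0.94, 1.60 and 1.11 in 2-cell embryos, and its second probe rose by 1.26. Of 12 proteasome subunits 2 rose, the ubiquitin receptor Psmd4 by 2.23 ± 0.31 and the ATPase Psmc4 by 1.89 ± 0.30, and none fell. Of 17 glycolysis and energy metabolism genes Pkm, Gapdh and Pgk1 rose (1.55, 1.50 and 1.07), and of 11 mitochondrial respiration genes Atp5b and Uqcrc2 rose (1.51 and 1.15). The shares that rose in these last 3 lists, 16.7% of proteasome, 17.6% of glycolysis and 18.2% of respiration genes, were near the 16.4% of all named genes. Leaving out 4-cell array 1 or 4, or 2-cell array 1 or 2, left 1 glycolysis gene risen and at most 1 respiration gene, and under equal interquartile ranges 0 of the 11 mitochondrial genes rose and 2 fell. Under that scaling 2 proteasome genes fell as well, and the medians of the traffic, ubiquitin, proteasome and glycolysis lists, 0.25, 0.12, 0.25 and 0.21 above, turned to -0.09, -0.13, -0.26 and -0.15.

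Among 20 genes of cell junctions and blastocyst lineages, 2 rose (10%, against 16.4% of all named genes), none fell and the median was -0.04. The list as a whole therefore did not rise more often than named genes in general. Zfp42, the pluripotency marker Rex1, was at 3.50, 3.47, 3.37 and 3.82 in 4-cell embryos, against 0.50, 1.17, 2.89 and 1.40 in 2-cell embryos, 4.13-fold higher, while its second probe gave 0.39 ± 0.61. Esrrb, an orphan nuclear receptor of pluripotent cells, rose by 1.26 ± 0.26 with one probe and gave -0.55 with the other. Further large rises were those of Tubb5, a β-tubulin (2.87), the ferritin light chain Ftl1 (2.90, with 1 of the 2-cell arrays at the lower limit), Pebp1, a Raf kinase inhibitor (2.80), and Gja1, the gap junction protein connexin 43 (2.64 with one probe and -0.42 with the other).

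**Figure D3:**
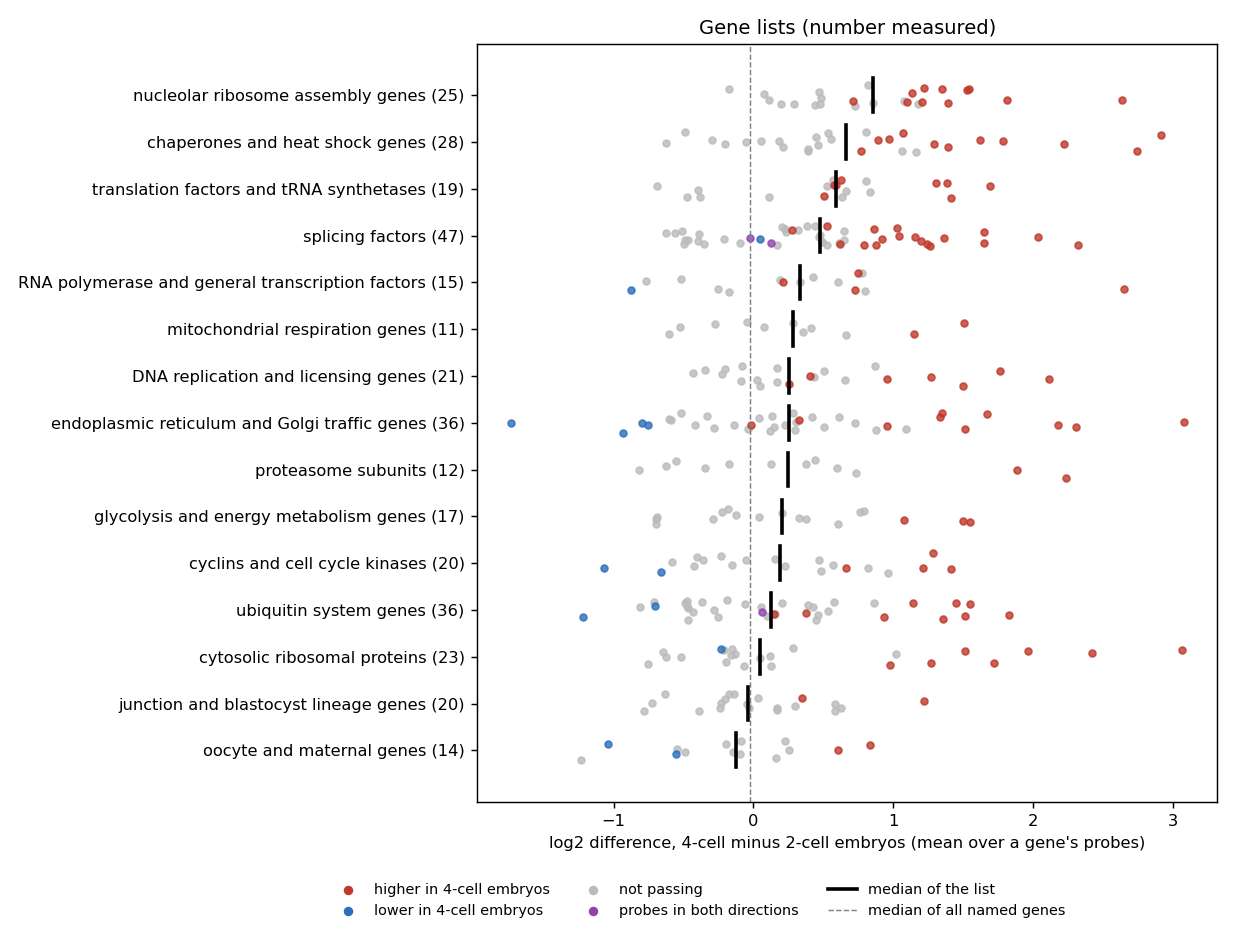
Difference between 4-cell and 2-cell embryos (log2, mean over a gene's probes, horizontal axis) for each measured gene of 15 lists, with the number measured in brackets; colours give the call by the gene's probes and black bars the list medians. The medians of the nucleolar (0.86) and chaperone (0.66) lists lie farthest right of the median of all named genes (-0.02, dashed), and oocyte and maternal genes (-0.12) and junction and lineage genes (-0.04) lie to its left.

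The largest fall was that of Rgs2, a regulator that speeds GTP hydrolysis by G protein α subunits. Its ratio was -2.78, -4.24, -3.63 and -2.99 in 4-cell embryos, against 0.74, 0.61, 1.11 and 1.37 in 2-cell embryos. Every 2-cell array lay above the common RNA and every 4-cell array more than 4-fold below it, a 20.6-fold fall (-4.37 ± 0.38, adjusted p = 9.97e-08). Along the stages Rgs2 averaged 4.36 ± 0.20 in fertilized eggs, 0.96 ± 0.35 in 2-cell, -3.41 ± 0.66 in 4-cell and -5.68 in 8-cell embryos (SD, n = 4 each).

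Several other large falls had been higher still in the fertilized egg. Tpra1, a membrane protein gene, was at -0.48, 0.57, 0.17 and -0.88 in 4-cell embryos, against 1.89, 3.25, 3.17 and 2.80 in 2-cell embryos, and averaged 4.96 in fertilized eggs. Its 7.65-fold fall was shared by its second probe (-1.71), while the third gave -0.96 with an adjusted p of 0.0604. Cyp2a5, a cytochrome P450 whose sequence is close to that of Cyp2a4, stood at 1.44, 1.13, 0.74 and 1.06 in 4-cell embryos, against 3.94, 4.23, 5.46 and 2.39 in 2-cell embryos and a mean of 6.32 in fertilized eggs. Paqr3, a Golgi-anchored inhibitor of Raf, fell by 2.69 with one probe (-0.21 with the other), and Itsn2, an endocytic scaffold gene, by 1.93 ± 0.26. Tet3, the oxidase of 5-methylcytosine in the paternal genome of the zygote, averaged 3.12 in fertilized eggs, -0.26 in 2-cell and -1.61 in 4-cell embryos, a fall of 1.35 ± 0.26 at the last step. The peroxisome import gene Pex13, Selenos of the endoplasmic reticulum and Traf6, a ubiquitin ligase of immune signalling, ran the same way, with fertilized egg means of 3.88, 3.65 and 3.01 and 4-cell means of -1.16, -1.75 and -0.47. These comparisons with fertilized eggs use the same 2-cell arrays, so they are set side by side and not counted together.

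Fabp5, a fatty acid binding protein gene, also fell into the 4-cell stage (-1.55 ± 0.24) and then differed in its later course. It averaged -0.11 in fertilized eggs, -2.76 in 2-cell, -4.30 in 4-cell and -1.21 in 8-cell embryos. The gene of the lysosomal lipase Lipa fell by 1.84 ± 0.53 and the spectrin gene Sptbn1 by 2.05 ± 0.37 with 1 of 4 probes.

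Some falls had 2-cell means above those of the fertilized egg. Mindy3, a deubiquitinase gene, was at 1.96, 2.34, 2.39 and 2.43 in 4-cell embryos, against 5.09, 4.29, 3.20 and 4.55 in 2-cell embryos, and averaged 3.09 in fertilized eggs. Tmtc3, an O-mannosyltransferase gene, had means of 2.23 in fertilized eggs, 3.21 in 2-cell and 1.19 in 4-cell embryos. Vrk1, a chromatin kinase gene, and Trim37, a ubiquitin ligase gene, had means of 1.57 and 0.88 in fertilized eggs, 2.50 and 1.60 in 2-cell, and 1.08 and 0.22 in 4-cell embryos. These genes were chosen for falling from the same 2-cell arrays, which favours high 2-cell means. A limma test of 2-cell over fertilized egg therefore cannot decide whether they had risen before. Its adjusted p was 0.0395 and 0.0336 for Mindy3 and Vrk1, and 0.141 and 0.164 for Tmtc3 and Trim37. Controls at 43 h and 32 h, on other arrays, differed 1.09-, 1.21-, 1.25- and 1.18-fold for Mindy3, Tmtc3, Vrk1 and Trim37. The 4 genes stood high again in morulae, at means of 3.65, 2.71, 2.45 and 1.38 in the order Mindy3, Tmtc3, Vrk1 and Trim37. Each has a further probe that did not pass (-0.61, -0.25, -0.03 and 0.58 in the same order), and Mindy3, Tmtc3 and Vrk1 did not pass under equal interquartile ranges.

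**Figure D4:**
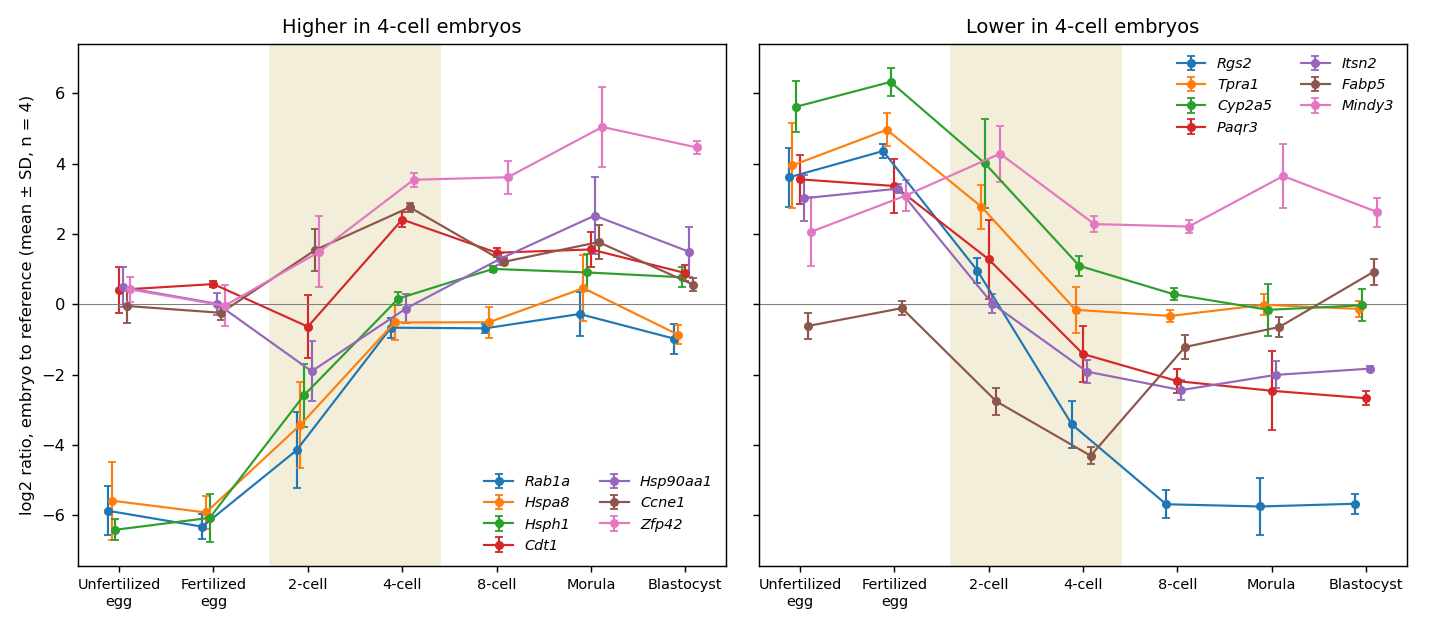
Mean ± SD (n = 4 arrays) of the log2 ratio to the common RNA at the 7 stages for 7 genes higher (left) and 7 lower (right) in 4-cell embryos, with the 2-cell and 4-cell stages shaded. Hspa8 and Rab1a lie near the lower limit in eggs and climb through both shaded stages, Cdt1 and Hsp90aa1 dip at the 2-cell stage, and Rgs2 runs from 4.36 in fertilized eggs to -5.68 in 8-cell embryos.

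The rises differed in where they came from. Rab1a, Hspa8 and Hsph1 averaged -6.32, -5.92 and -6.07 in fertilized eggs, near the lower limit, -4.15, -3.43 and -2.58 in 2-cell embryos, and -0.66, -0.52 and 0.17 in 4-cell embryos. Other genes had 2-cell means below those of both neighbouring stages. They were chosen for rising from these same 2-cell arrays, which favours such a pattern, and the earlier drop was not tested. Cdt1 averaged 0.58 in fertilized eggs, -0.64 in 2-cell and 2.41 in 4-cell embryos, Hsp90aa1 0.01, -1.90 and -0.12, Srsf3 -1.02, -3.48 and -1.16, and Psmd4 0.45, -0.65 and 1.58 at those stages. Tubb5 and Pebp1 came down again, to 8-cell means of -3.98 and -1.72 after 4-cell means of -0.66 and 0.01.

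Passing from above to below the common RNA on all arrays was rare. Of 22575 probes, 913 fell, and it was seen for 22 of these, 7 of them named. Of the 2162 that rose, 307, 94 of them named, passed the other way on all 8 arrays. The medians of probes that fell lay above the common RNA at both stages (1.66 in 2-cell and 0.73 in 4-cell embryos). Those of probes that rose lay on either side of it (-0.998 and 0.34), so the 2 counts do not start from like levels. The 7 were Rgs2, Traf6, the F-box gene Fbxo28, the adenosine deaminase gene Ada, Mad2l1, Desi1 and the NF-κB inhibitor gene Nfkbib, named after their values were seen, with 2-cell means between 0.36 and 1.06 and 4-cell means between -3.41 and -0.11. Fbxo28 and Mad2l1 averaged 3.20 and 3.25 in fertilized eggs, and Desi1 averaged -0.01 there, 0.54 in 2-cell and -0.15 in 4-cell embryos. Only Rgs2 and Traf6 of the 7 lay within the 20 largest falls.

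The known 2-cell transcripts were thinly covered. Of 75 listed genes 3 were measured. Rgs2 fell and Ccne1 rose as given above. Rgs2 had averaged 4.36 in fertilized eggs and 0.96 in 2-cell embryos, so its level was lower before this step already. Obox3, a homeobox gene, had ratios of -0.57, -0.37, 0.00 and 0.18 in 4-cell embryos, against -0.98, -0.84, -1.08 and -1.25 in 2-cell embryos, a difference of 0.85 with an adjusted p of 0.108. None of the 3 thus had a 2-cell mean above those of both neighbouring stages. The stored oocyte RNAs showed no common direction. Of 14 measured, Sycp2 (1 of 2 probes) and Dnmt1 (1 of 3) rose, Bmp15 (1 of 2) and Cpeb1 fell, and the list's median was -0.12. None of the 14 passed without 4-cell array 4 or without 2-cell array 2, no rise was left without 4-cell array 2 or 3 or 2-cell array 1, and no fall without 4-cell array 1. Cpeb1, the cytoplasmic polyadenylation factor, was at 1.04, 0.77, 1.30 and 0.82 in 4-cell embryos, against 2.63, 2.80, 1.58 and 1.09 in 2-cell embryos, so its groups overlap. Dppa3, the maternal factor Stella, had means of 5.99 ± 0.04 in 4-cell and 6.09 ± 0.42 in 2-cell embryos, near the limit of 6.64, and its difference of -0.10 became 0.73 under quantile normalization. Btg4, which recruits the deadenylase to maternal RNAs, had 3.70 ± 1.02 and 4.94 ± 1.15 in that order (adjusted p = 0.0988).

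The 9 genes with probes in both directions were Dst, Hand1, Luc7l2, Myl9, Rara, Rbm25, Set, Ubr4 and Zfp410. Set, a histone chaperone gene, had 1 probe at 2.20 ± 0.32 and another at -0.88 ± 0.26, and the 4 probes of the myosin light chain gene Myl9 ran from -1.32 to 2.38. The files do not say which transcript each probe reads.

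The treatment set offers a readout on other arrays, of embryos up to the late 2-cell stage. AM is not spelled out in the labels and is read here as α-amanitin, which blocks RNA polymerase II. The time from which the hours run is not stated. In late 2-cell embryos at 54 h, 979 probes (4.34%) were lower with AM than in controls and 478 (2.12%) higher. Of the 2162 probes that rose into the 4-cell stage, 374 (17.3%, and 38.2% of those lower with AM) were lower with AM and 40 (1.85%) higher. Of the 913 that fell, 40 (4.38%) were lower with AM and 23 (2.52%) higher, shares of probes near those of all. At 43 h no probe passed in either direction under AM, with 982 at an unadjusted p under 0.05, and none passed on the values as deposited.

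By gene, 181 (5.86%) were lower and 157 (5.08%) higher with AM at 54 h. Of the 507 genes that rose into the 4-cell stage, 79 (15.6%) were lower with AM and 18 (3.55%) higher. Of the 168 that fell, 6 (3.57%) were lower with AM and 15 (8.93%) higher. Of 25 nucleolar ribosome assembly genes 6 were lower and none higher, among them Ncl, Nolc1, Polr1a and Eif6, which also rose into the 4-cell stage, and Wdr74, which gave 1.17 there without passing. Of 28 chaperones 2 were lower (Hsph1 and Hspb1) and 1 (Hsp90b1) higher. Zfp42 stood at -2.31, -1.46 and -1.91 with AM, against 3.70, 3.12 and 3.17 in controls, a difference of -5.22 ± 0.85 (adjusted p = 0.000228). Ccne1 was at -0.66, -0.89 and -0.96 with AM, against 1.12, 1.36 and 1.29 in controls. The groups lay far apart for both genes, and Mllt6, Ssr2, Eif4e and Luc7l were lower with AM by 1.57, 1.42, 1.07 and 1.07. These are examples of the sensitive rises. Other large rises differed little between AM and control at 54 h. Among them were Rab1a, Rpl12, Hspa8, Ftl1, Rps23 and Rps21, at 1.17-, 1.11-, 1.11-, 1.11-, 1.02- and 1.06-fold. Rgs2, the largest fall between stages, was also lower with AM, at -2.49, -2.61 and -5.22, against -1.10, -0.72 and -1.21 in controls (adjusted p = 0.018), and so were Vrk1, Tmtc3 and Trim37, by 1.26, 1.06 and 0.90.

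Some of the change was already visible within the 2-cell stage. Between late (54 h) and early (43 h) 2-cell controls 521 probes (2.31%) were higher and 401 (1.78%) lower. Of the 2162 probes that rose into the 4-cell stage, 221 (10.2%, and 42.4% of those higher at 54 h) were higher at 54 h and 36 (1.67%) lower. Of the 913 that fell, 53 (5.81%, and 13.2% of those lower at 54 h) were lower at 54 h and 1 (0.110%) higher. By gene, 55 of the 507 that rose (10.8%) were higher at 54 h, against 116 (3.76%) of all named genes, and 16 of the 168 that fell (9.52%) were lower, against 122 (3.95%) of all. Cyp2a5 had 2.40, 1.68 and 1.69 at 54 h, against 6.12, 5.09 and 5.81 at 43 h, a difference of -3.75 ± 0.71. Fabp5, Lipa, Paqr3 and Tet3 fell between these controls by 2.48, 2.37, 2.31 and 1.74, while Mllt6, Ssr2, Luc7l and Eif4e rose by 1.53, 1.27, 1.11 and 0.87. Rgs2 did not pass at this step (-0.32 ± 0.64, adjusted p = 0.864), and between 43 h and 32 h controls it was lower by 3.92 at 43 h. The comparisons at 54 h share the 54 h controls, so their calls are not set against each other.

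**Figure D5:**
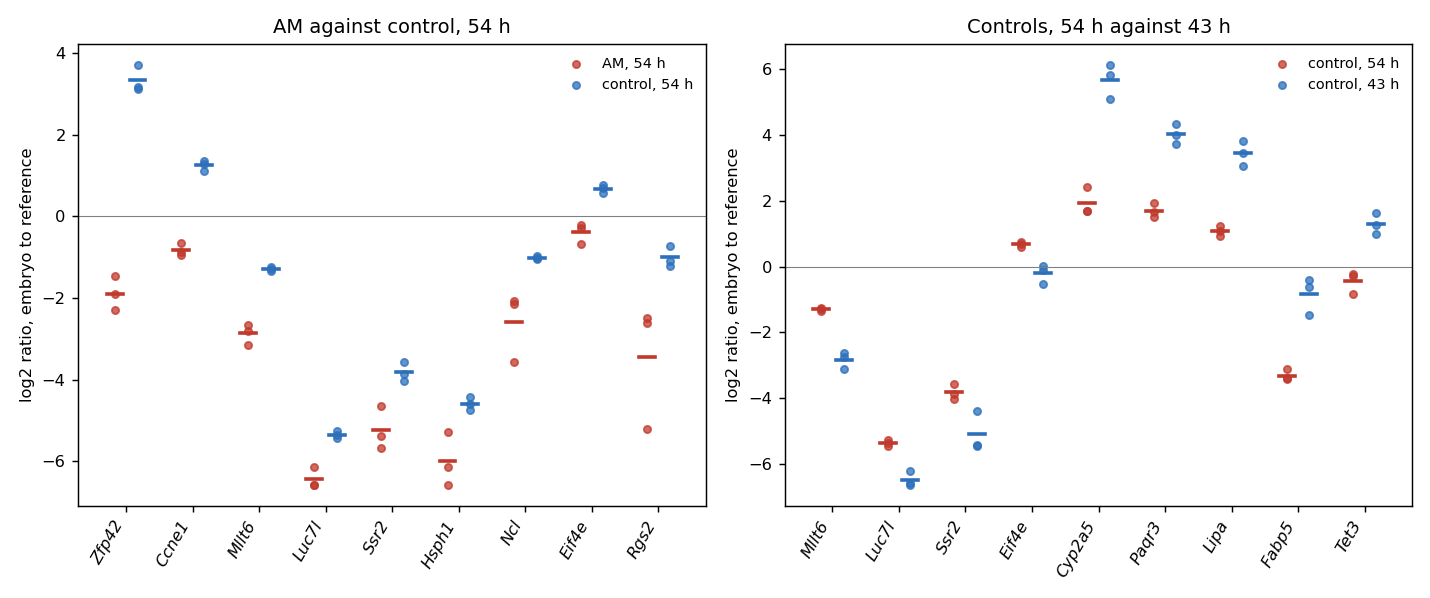
Log2 ratio to the Universal Reference on each of 3 arrays per group after quantile normalization, for AM (red) against control (blue) embryos at 54 h (left) and for controls at 54 h (red) against 43 h (blue) (right); short lines are means. AM minus control is -5.22 for Zfp42 and -2.09 for Ccne1, and 54 h minus 43 h is -3.75 for Cyp2a5.

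Markers of other cells were little covered. Of 30 cumulus and granulosa cell markers 4 were measured. Gja1 rose with 1 of 2 probes and is also an embryo gene, and Cyp11a1, Inhbb and Fst gave -0.28, -0.18 and -0.09 without passing. The summed level of a list is not given for ratios. Cyp11a1 averaged 0.19 in 4-cell and 0.47 in 2-cell embryos, and of 25 sperm markers the only one measured, Dkkl1, averaged 0.62 and 0.50 in that order. The part of such cells in the results was not tested.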

How the data were processed

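The deposited values were read as log10 ratios of the 2 channels of each array, because they stop at exactly -2 and 2 and centre near 0; no label states the base, and with another base every fold would change. How the authors normalized them, and with which scanner and software, is not given in the sources used here. The sign was turned and the log10 ratios were put on a log2 scale. Of the values of the 8 arrays 1.55% lay at a limit. Symbols came from the platform's annotation, updated through Entrez identifiers: 4262 probes name 1 gene, 6822 several and 11491 none, and only the first kind were named.

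All 28 stage arrays were fitted with limma 3.58.1 (R 4.3.3), with 1 mean per stage, and p-values were adjusted over all 22575 probes. Each SE and p-value thus rests on the spread within all 7 stages. The 2-cell arrays spread more than the 4-cell arrays, and the fit of the 8 arrays alone kept 1228 of the 3075 calls. The 36 treatment arrays were quantile normalized and fitted apart, and levels of both sets are not compared. The number of arrays limits the precision. No 2 of the 8 arrays were copies (highest correlation 0.963). The fit was tested on simulated data.

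Named genes were the 20 largest rises and 20 largest falls among named probes that passed and whose arrays did not overlap, up to 4 passing members of each list, and the 2-cell and oocyte lists. Other genes, among them further list members, were named after their values were seen. The members and lists were chosen with earlier results of these data known. Deviations of equally numbered arrays correlated at 0.012, 0.588, 0.196 and 0.102, so the numbers were not taken as pairs. Alternatives covered scaling, limits, the arrays fitted, a split of the stage arrays seen in earlier results (all 8 arrays lie in its first part), the replicate block and leaving arrays out.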

Additional observations from a re-analysis of the deposited data

Results flagged for a closer look

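Among 190 groups of 4 arrays of the 95 named genes, 9 held 1 array far from the other 3; chance flags about 1 in 20 groups. In 2-cell embryos these were array 1 for Usp48 (-5.07, the others between -0.82 and -0.49), for Taf7 (-6.64, the lower limit, against -0.78 to 0.13), for a Dnmt3b probe (-0.59 against 0.46 to 0.57) and for Khdc3 (0.00688 against -0.72 to -0.62), array 2 for Zmpste24 (-2.62 against -0.27 to just under 0), and array 4 for Gapdh (-0.62 against -2.60 to -2.36). In 4-cell embryos they were array 3 for Rnf11 (-0.20 against 0.28 to 0.37), array 2 for Tars (-1.22 against -0.94 to -0.90) and array 1 for Zp2 (1.36 against 2.23 to 2.41). Of these genes Usp48, Taf7, Zmpste24, Gapdh, Rnf11 and Tars are counted among the rises. The other 4 probes of Zmpste24 did not pass, with differences between -0.97 and 0.07.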

How the results depend on the processing

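Of the 84 named genes that passed, 51 (40 higher and 11 lower) stayed past the threshold in the same direction under all alternatives other than the replicate block and the fit of the 8 arrays alone. For Mllt6 and Ftl1, both among the 51, leaving out probes at a limit gave no value. Fitting only the 8 arrays gave 1341 probes (1113 higher, 228 lower) and 271 genes higher and 51 lower. The replicate block in that fit called 0 probes, 0 higher and 0 lower, and 0 genes in either direction, with 5474 probes at an unadjusted p under 0.05 in limma; the labels do not say whether equal numbers mark pairs, and the correlation for number 1 was 0.012. With the array split as a block 1469 probes and 262 genes were lower. Without array 2 of either stage, an alternative chosen after seeing the data because their deviations were alike, 1555 probes passed (1226 higher, 329 lower), and 294 genes were higher and 65 lower. A fold of at least 2 left 387 probes and 75 genes lower.

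Leaving out 1 array at a time gave between 1951 probes (without 4-cell array 4) and 4618 (without 2-cell array 4), 1553 to 2673 of them higher and 398 to 1945 lower, with 365 to 598 genes higher and 74 to 297 lower. Without 2-cell array 2 there were 1999, 421 of them lower. The lower count was 1945 without 2-cell array 4, 398 without 4-cell array 4, 485 without 4-cell array 1 and 498 without 2-cell array 1. As deposited, the treatment arrays gave 184 probes lower at 54 h than at 43 h, 39 higher at 43 h than at 32 h and 166 higher with AM at 54 h. Dppa3 changed sign under quantile normalization of the stage arrays (0.73, against -0.10) and stood at 1.42 under equal interquartile ranges; the cause was not tested. Equal interquartile ranges ended the calls of 20 named genes, among them Cdk2, Fen1, Lipa, Mindy3, Tmtc3 and Vrk1.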
